A study of Mus musculus with 4 samples.

Results

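The 36 genes described here belong to the machinery that copies DNA and divides the cell: 8 that license replication origins, 3 that work at the fork or make its nucleotides, 4 regulators of entry into S phase, 19 mitotic genes and the proliferation markers Mki67 and Top2a. They were chosen as a module by name, through the gene name of each array probe or an older synonym, and all 36 were found among 17400 genes measured in the molar germ. They were read by 59 probes, 57 of them measured, and every member was well above background in both channels on all 4 arrays. The samples were pooled whole lower first molar germs of C57BL/6 mouse embryos, with no mutant or treated group. Pools from embryonic day (E) 11, 12, 16 and 18 were labelled with Cy5. Each shared an array with an E14 pool in Cy3, 1 array per stage and no dye swap. The sources used here do not say how many germs made a pool. Log2 ratios are Cy5 over Cy3, so a positive one marks a stage above E14.

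A cell that divides first loads the Mcm2 to Mcm7 helicase onto replication origins, with the help of Cdc6 and Cdt1, and cyclin E with its kinase then starts S phase. E2F factors switch on many genes of this early part of the cycle. Genes needed later, in G2 and mitosis, are held down in resting cells by the DREAM complex at a CHR element and are activated in G2 through the same element, often with NF-Y bound at CCAAT boxes nearby. In the tooth germ, dividing cells fill the growing bud and the cervical loops, whereas the signalling enamel knot and the later odontoblasts leave the cycle.

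Promoters of the members were read first. The replication and mitotic sets compared below were fixed by gene name and not by these elements. A RefSeq promoter (GRCm38.p6, 250 bases before to 50 after the start) was at hand for 30 of the 36 members. Words searched on both strands were CCAAT and the CHR word TTTGAA with its variant TTCGAA. For E2F the words were TTCCCGC, its variant TTGGCGC, its variant TTCGCGC and its variant TTGCCGC. On the reverse strand CCAAT reads ATTGG and can share letters with TTGGCGC. Shown are 200 bases, from position -180 to 20 around the start, of 3 mitotic and 2 replication genes whose array values differ, in lower case with these words in capitals. Cdc20 (chr4:118437324-118437523, minus strand) activates the anaphase-promoting complex, Ttk (chr9:83834509-83834708, plus strand) is a spindle checkpoint kinase and Cdk1 (chr10:69352893-69353092, minus strand) is the kinase that drives mitosis.
Cdc20: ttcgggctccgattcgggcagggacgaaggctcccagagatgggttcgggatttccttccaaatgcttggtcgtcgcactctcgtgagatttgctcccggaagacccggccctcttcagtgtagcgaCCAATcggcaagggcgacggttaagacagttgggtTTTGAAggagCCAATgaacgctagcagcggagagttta
Ttk: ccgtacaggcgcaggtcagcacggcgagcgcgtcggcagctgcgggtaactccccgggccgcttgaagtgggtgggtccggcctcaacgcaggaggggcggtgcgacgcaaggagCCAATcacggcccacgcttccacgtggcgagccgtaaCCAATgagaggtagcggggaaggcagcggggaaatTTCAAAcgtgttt
Cdk1: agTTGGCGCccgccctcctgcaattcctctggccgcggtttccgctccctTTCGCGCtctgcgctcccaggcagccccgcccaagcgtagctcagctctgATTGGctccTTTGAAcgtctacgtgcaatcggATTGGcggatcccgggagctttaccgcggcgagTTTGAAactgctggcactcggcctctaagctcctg

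Cdc20 and Ttk each held a CHR word close to the start and 2 CCAAT boxes, and no E2F word in this window. Cdk1 held both kinds, with 2 CHR and 2 E2F words. The replication genes shown are subunits of the origin helicase, Mcm5 (chr8:75109329-75109528, plus strand) and Mcm6 (chr1:128359686-128359885, minus strand).
Mcm5: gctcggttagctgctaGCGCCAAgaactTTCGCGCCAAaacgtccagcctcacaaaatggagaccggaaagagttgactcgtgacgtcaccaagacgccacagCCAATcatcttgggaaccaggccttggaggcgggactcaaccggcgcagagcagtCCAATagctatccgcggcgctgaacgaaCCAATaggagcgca
Mcm6: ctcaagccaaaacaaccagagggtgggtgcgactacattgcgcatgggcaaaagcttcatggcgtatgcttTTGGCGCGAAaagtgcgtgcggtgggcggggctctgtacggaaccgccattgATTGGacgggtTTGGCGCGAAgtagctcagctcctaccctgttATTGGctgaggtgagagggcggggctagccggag

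Both carried E2F words, partly overlapping each other on opposite strands, beside CCAAT boxes, and neither held a CHR word. The split ran through the sets. A CHR word lay in the promoter of 11 of 15 mitotic members (73.3%) and of 2 of 7 replication members (28.6%), against 16.6% of measured genes with a promoter and 21.7% of all genes with one. An E2F word lay in 2 of 15 mitotic members (13.3%) and in 5 of 7 replication members (71.4%), against 18.7% of measured genes and 10.9% of all. CCAAT was found in 13 of the 15 and in all 7, against 42.6% of measured genes. These matches describe letters in a window and not binding.

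From E11 to E18 the members were mostly lower late than early: 32 of 36 stood lower at E18 than at E11, where 51.5% of all measured genes were. The median difference in log2 ratio was -0.54, against -0.01 over all genes, and 3 members (Ccne1, Rrm2 and Aurka) were at least 2-fold lower (all genes 2.52%). Most of it lay between E12 and E16. Those stages were on different slides, as were E11 and E18. Stage and slide therefore cannot be told apart for that step or for E18 over E11. E12 stood below E11 in 30 members (all genes 49.8%), with a median step of -0.21. E16 stood below E12 in 31 (all genes 49.2%), with a median step of -0.51. The last step ran the other way, with E18 above E16 in 28 members (all genes 48.5%) and a median of 0.18. In RNA from whole germs, fewer dividing cells and less of each transcript per cell cannot be told apart.

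**Figure D1:**
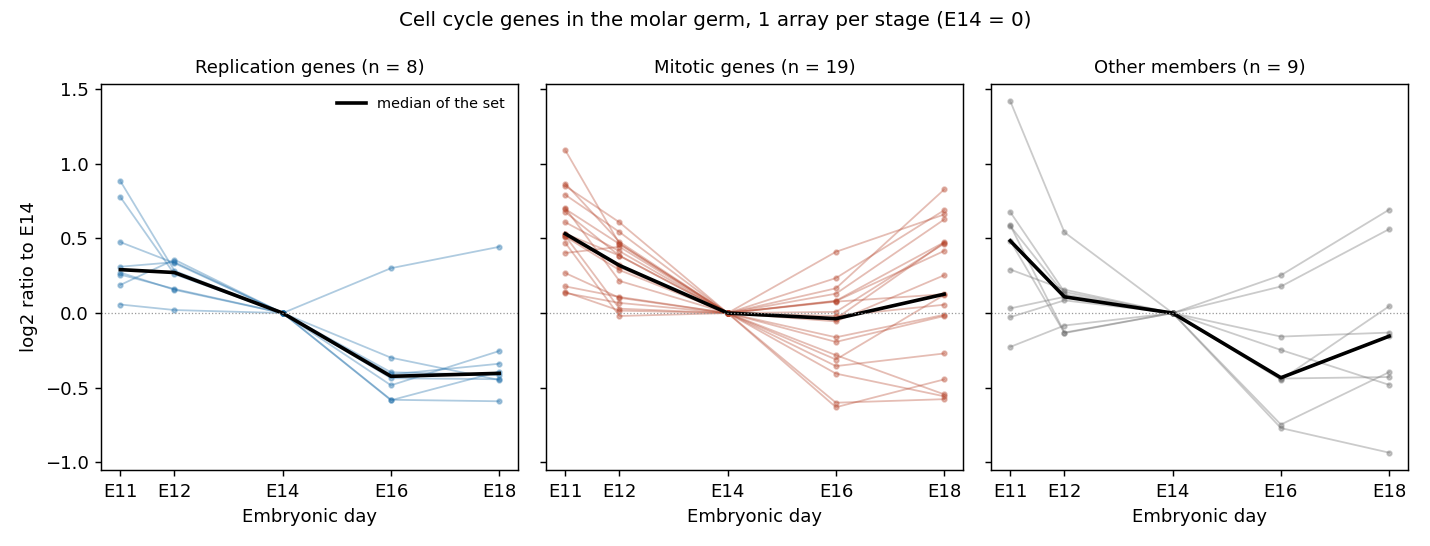
Log2 ratio to E14 (y axis) against embryonic day (x axis), 1 thin line per gene, for 8 replication, 19 mitotic and 9 other members; the black line is the set's median and E14 is 0 by construction. Replication genes run from a median of 0.29 at E11 to -0.40 at E18, and mitotic genes from 0.53 to 0.13 with a low at E16.

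Against E14 itself, 34 members were higher at E11 (all genes 47.9%) and 32 at E12 (49.5%), whereas 25 were lower at E16 (49.2%) and 20 at E18 (51.4%). Their medians were 0.51, 0.24, -0.26 and -0.08 log2 units. The side of E14 on which E16 and E18 fell depended on how the dyes were balanced. With each array centred on its median instead of fitted by loess, the medians for E16 and E18 became 0.69 and 0.50, with all genes at 0.57 and 0.17. The steps from E11 to E12, from E12 to E16 and from E11 to E18 kept their direction, at -0.12, -0.79 and -1.06, with all genes at 0.10, -0.10 and -0.23. For E18 over E16, median centring gave 25 members below 0 and a median of -0.18, with all genes at -0.29. The spread of the E14 readings was taken after loess and after the arrays' mean intensities were brought to a common distribution. It was small, with a median SD over 4 hybridisations of 0.04 across members (largest 0.18, Chek1). Whether these were 1 E14 pool is not stated. The spread says nothing on differences between pools of the other stages, of which there was 1 each.

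Among all 5 stages, with E14 set to 0, 26 members had their highest value at E11 (all genes 22.9%), 5 at E12, 1 at E14, 0 at E16 and 4 at E18. The lowest value was at E16 in 17 members (14.7%), at E14 in 9, at E18 in 8 (25.3%) and at E12 in 2. An uninterrupted descent through all 5 stages was shown by 4 members (2.90%), which were Ccne1, Aurka, Mcm2 and Mcm6. The highest value was at E11 in 23 to 27 members under the 5 other processings, but under median centring the lowest value was at E14 in 34.

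**Figure D2:**
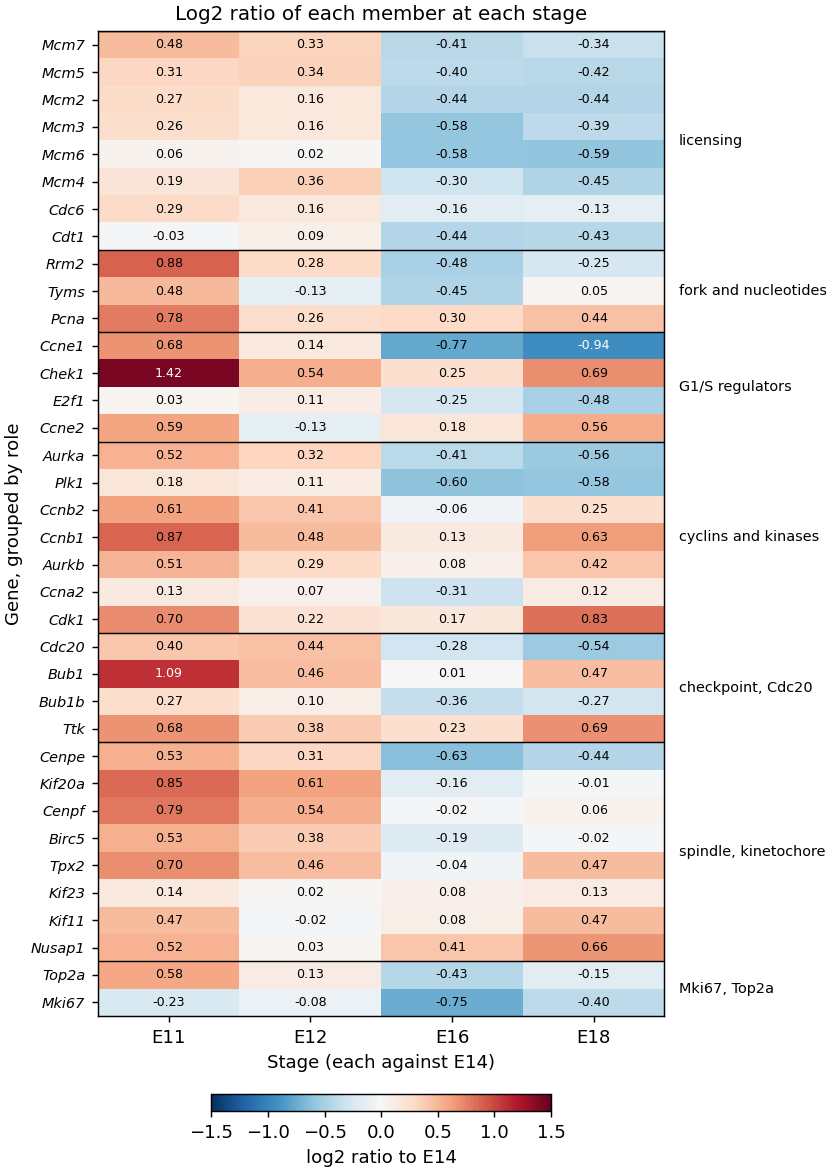
Log2 ratio to E14 (colour and printed number) of each member (rows, grouped by role) at each stage (columns). Most entries are above 0 at E11 and E12. At E16 and E18 the licensing genes are all below 0 and the mitotic genes are split. These values are after loess.

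The origin licensing genes were the most alike. Mcm2, a helicase subunit, stood at 0.27 (E11), 0.16 (E12), -0.44 (E16) and -0.44 (E18). Mcm3 gave 0.26, 0.16, -0.58 and -0.39 in the same order of stages, and Mcm4 gave 0.19, 0.36, -0.30 and -0.45. In each, the early pair of stages lay above E14 and the late pair below it. Mcm5 was measured at 0.31, 0.34, -0.40 and -0.42. Mcm6, whose promoter is shown above, lay near E14 at first, at 0.06 and 0.02, and then at -0.58 and -0.59. Mcm7 had the values 0.48, 0.33, -0.41 and -0.34. Across the 6 subunits, which form 1 ring, E18 over E11 ranged only from -0.81 to -0.64. The step from E12 to E16 ranged from -0.75 to -0.59, and that from E16 to E18 had a median of -0.01.

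The loading factors behaved less evenly. Cdc6, which recruits the helicase, stood at 0.29, 0.16, -0.16 and -0.13. Its 2 measured probes differed in size, with E18 over E11 at -0.90 and -0.42. Cdt1, its partner in loading, was close to E14 at E11 (-0.03) and E12 (0.09) and below it at E16 (-0.44) and E18 (-0.43). All 8 licensing genes were therefore lower at E16 and E18 than at E14 under the loess normalization.

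At the fork, all 3 genes were lower at E12 than at E11 and then parted. Pcna, the sliding clamp of the polymerases, stood at 0.78, 0.26, 0.30 and 0.44, above E14 at every stage. Rrm2, the small subunit of ribonucleotide reductase, stood at 0.88, 0.28, -0.48 and -0.25. E11 was 2.20-fold above E18 for this gene. Tyms, thymidylate synthase, went from 0.48 to -0.13 and -0.45 and was back at 0.05 at E18. Its E18 value was 0.49 above that at E16, the largest such step among replication members.

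The regulators of S phase entry held both extremes of the module. Ccne1, cyclin E1, which starts S phase with Cdk2, descended at every stage: 0.68, 0.14, -0.77 and -0.94. E11 was 3.06-fold above E18, the widest span of any member, and both of its probes gave it, at -1.61 and -1.35. Ccne2, the other E cyclin, did not share it, at 0.59, -0.13, 0.18 and 0.56. E2f1, a transcription factor of this phase, gave 0.03, 0.11, -0.25 and -0.48. Chek1, the kinase of the replication checkpoint, had the highest value of any member, 1.42 at E11 (2.67-fold over E14), and then 0.54, 0.25 and 0.69. Its probe is dim, and the scanner log ratio, without the offset, was 2.02 at E11. Chek1 was also the member whose E14 readings varied most between hybridisations.

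Under loess, mitotic cyclins and kinases divided into 5 that stood above E14 at E18 and a pair that did not. Ccnb1, cyclin B1, which with Cdk1 drives entry into mitosis, stood at 0.87, 0.48, 0.13 and 0.63. Ccnb2, its relative, gave 0.61, 0.41, -0.06 and 0.25, and Cdk1 itself 0.70, 0.22, 0.17 and 0.83. For Cdk1 the E18 value was the highest of all stages under loess, with a step of 0.66 from E16. Under median centring its E18 value was 1.38, below 1.74 at E11. Ccna2, cyclin A2 of S and G2 phase, lay at 0.13, 0.07, -0.31 and 0.12. Aurkb, the kinase of the chromosomal passenger complex, lay at 0.51, 0.29, 0.08 and 0.42. The pair that stayed low at E18 works at centrosomes and spindle poles. Aurka gave 0.52, 0.32, -0.41 and -0.56, and Plk1 gave 0.18, 0.11, -0.60 and -0.58. Under median centring this pair too stood above E14 at E18, at 0.13 and 0.07, still the lowest of these genes.

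Checkpoint genes showed the same split under loess. Bub1, a kinetochore kinase, went from 1.09 through 0.46 and 0.01 to 0.47, and Ttk from 0.68 through 0.38 and 0.23 to 0.69. These were above E14 at all 4 stages. Bub1b, which holds back the anaphase-promoting complex, lay at 0.27, 0.10, -0.36 and -0.27. Cdc20, the protein it restrains, lay at 0.40, 0.44, -0.28 and -0.54. With median centring all 4 genes were above E14 at E18: Bub1b at 0.20, Cdc20 at 0.28, Ttk at 0.78 and Bub1 at 0.85. Cdc20 and Ttk both carry a CHR word near the start, and their E18 over E11 differences were -0.95 and 0.01. Ttk is the dimmest member, with a mean signal of 86.0 intensity units, and the processing pulls dim ratios towards 0. Scanner log ratios gave it 1.85 at E11 and 1.77 at E18.

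Under the loess normalization all 8 spindle and kinetochore genes were above E14 at E11 and higher at E18 than at E16. With median centring only Kif11 and Tpx2 were higher at E18 than at E16. Cenpe, the kinetochore motor, had the widest range on its brightest probe, at 0.53, 0.31, -0.63 and -0.44. Its other measured probes gave -0.19 and 0.17 at E16, and 0.04 and 0.48 at E18. Cenpf, a kinetochore and matrix protein, gave 0.79, 0.54, -0.02 and 0.06, but its probes disagreed on E18 over E11 (-0.74 and 0.08). Kif20a, a motor of cytokinesis, gave 0.85, 0.61, -0.16 and -0.01, and Birc5 (survivin), a passenger protein, gave 0.53, 0.38, -0.19 and -0.02. Under loess those 4 lost most of their E11 excess by E16. The spindle assembly genes kept or regained much of it by E18 under loess, on their brightest probes. Tpx2, which activates Aurka, stood at 0.70, 0.46, -0.04 and 0.47. Kif11, the motor that separates the poles, stood at 0.47, -0.02, 0.08 and 0.47. Nusap1, a microtubule-binding protein, stood at 0.52, 0.03, 0.41 and 0.66. Its other measured probe, a dim one, gave 0.21, 0.11, -0.03 and 0.21. The 2 other Kif11 probes, dimmer still, gave -0.06 and 0.13 at E11 and -0.05 and 0.17 at E18. Median centring put Tpx2, Kif11 and Nusap1 at 0.98, 0.79 and 1.17 at E18, below their 1.71, 1.11 and 1.51 at E11. Kif23, of the central spindle, moved least, at 0.14, 0.02, 0.08 and 0.13, with its 2 probes on either side of 0 for E18 over E11.

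The proliferation markers differed from each other. Under loess Mki67, the antigen used to stain cycling cells, was the member that peaked at E14. It stood at -0.23 (E11), -0.08 (E12), -0.75 (E16) and -0.40 (E18). Under median centring it was 1.14, 1.34, 0.36 and 0.38, with E14 lowest. Top2a, topoisomerase II, followed the module, at 0.58, 0.13, -0.43 and -0.15. Both were lowest at E16 under loess.

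Replication and mitotic genes were compared as the 6 Mcm genes with Pcna and Rrm2 against the 19 mitotic members. The medians were 0.29 and 0.53 at E11 and 0.27 and 0.32 at E12. They were -0.42 and -0.04 at E16, and -0.40 and 0.13 at E18. E18 over E11 had a median of -0.68 for replication genes, lower in 8 of 8, and of -0.35 for mitotic genes, lower in 15 of 19. The gap of -0.33 was -0.40 to -0.33 over the 5 other processings. Among these, dropping the filter on dim probes could not move it, since every member's brightest probe passed that filter. The ranges overlapped widely, from -1.14 to -0.33 and from -1.07 to 0.14. No test of the gap was made, since the genes are not replicates and each stage had 1 pool. E11 and E18 were also on different slides.

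**Figure D3:**
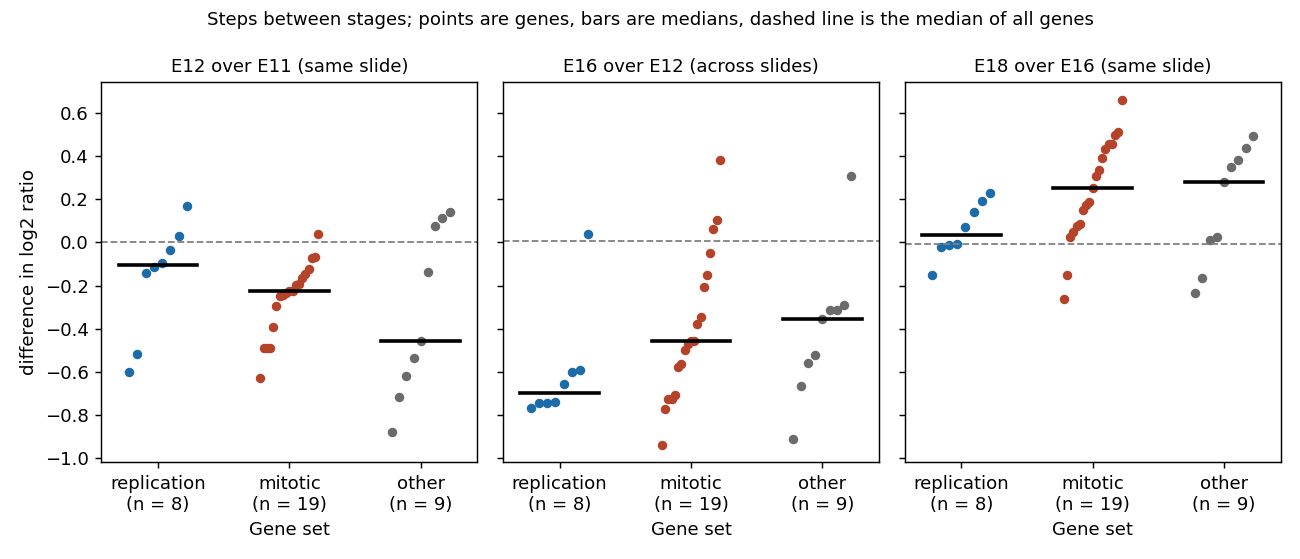
Difference in log2 ratio between stages (y axis) for replication, mitotic and other members (x axis), 1 point per gene, with the set's median as a bar and the median of all genes dashed. From E16 to E18, 17 of 19 mitotic genes lie above 0 and replication genes are split 4 to 4. These values are after loess, and under median centring 12 of the 19 mitotic genes lie below 0.

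The medians of the sets were nearest at E12, and lay further apart at E16 and E18 than at E11. Between E11 and E12, on 1 slide, the median step was -0.11 for replication and -0.23 for mitotic genes. Between E12 and E16, across slides, it was -0.70 and -0.46. Between E16 and E18, again on 1 slide, it was 0.03, with 4 genes up and 4 down, and 0.25, with 17 of 19 above 0. Under median centring this step was -0.31, with 8 of 8 below 0, and -0.16, with 12 of 19 below 0 (all genes -0.29). The difference between the sets in that last step was -0.22, and -0.27 to -0.15 over the other processings. Within replication genes the Mcm subunits had a median step of -0.01, with 2 of 6 above 0. The step was 0.14 for Pcna, 0.23 for Rrm2 and 0.49 for Tyms, whereas Cdc6 (0.03) and Cdt1 (0.01) moved by less than the SD of their E14 readings. Among the helicase subunits Mcm3 had the highest step, at 0.19. With Cdc6, Cdt1 and Tyms added, the replication median of E18 over E11 was -0.65. For Pcna, Rrm2, Cdc6, Cdt1 and Tyms without the Mcm subunits it was -0.42, beside -0.35 for mitotic genes.

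Probe brightness ran alongside this gap. Replication probes had a median mean signal of 6259 intensity units and mitotic probes 1472, which says nothing on relative transcript levels. Across the 36 members, which share arrays and reference, the Spearman correlation of mean signal with E18 over E11 was -0.38, and with the E18 ratio it was -0.52. Over all genes the same correlations were -0.06 and -0.04. The 14 mitotic members within the brightness range of the replication genes had a median E18 over E11 of -0.54, beside -0.68 for replication genes. In those 14, E18 over E16 had a median of 0.18, with 12 above 0. The part of brightness in the rest was not tested.

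**Figure D4:**
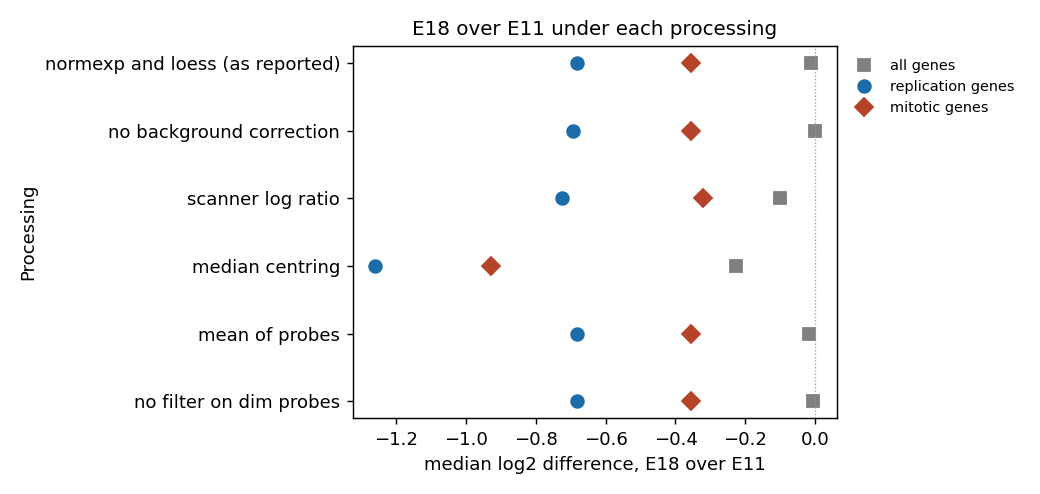
Median log2 difference of E18 over E11 (x axis) for all genes, 8 replication and 19 mitotic genes under each processing (y axis). The replication median lies below the mitotic one in each, by 0.33 under the reported processing. Median centring shifts all of them down. Dropping the filter on dim probes leaves the values of both sets unchanged by construction.

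A linear trend in embryonic day over the 4 ratios was fitted with limma to 17396 genes. It called 4 members as falling (all genes 2.64%) and 0 as rising (6.25%), with 32 not past an adjusted p of 0.05. Ccne1 fell by 0.23 ± 0.03 log2 units per day (SE; limma, adjusted p = 0.0152) and Aurka by 0.16 ± 0.03 (0.0229). Cdc20 fell by 0.15 ± 0.03 (0.0279) and Cenpe by 0.16 ± 0.04 (limma, adjusted p = 0.0488). Cyclin E1, a mitotic kinase, an anaphase activator and a kinetochore motor thus passed. Of the 8 replication genes 0 passed, against 3 of the 19 mitotic genes, but this contrast moved with the settings. Replication genes called falling were 1 without background correction, 2 with scanner log ratios, 7 under median centring (beside 7 mitotic genes), 1 without E16 and 3 without E18. At an unadjusted p under 0.05, 7 of the 8 replication genes and 19 of the 36 members were falling, beside 1988 of 17396 genes.

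The calls rest on few arrays, and that of Cenpe also on its brightest probe. Its 3 probes gave E18 over E11 from -0.98 to -0.49. Cenpe did not pass in limma with the mean of its probes (adjusted p = 0.120), with scanner log ratios (0.056) or without the intensity trend (0.064). E11 and E12 shared 1 slide and E16 and E18 the other. With slide as a block, limma called 0 members and 0 of all genes, and Cenpe's slope turned to 0.03. Without the E11 array or without the E12 array 0 members passed; without E16 5 did and without E18 8 did. Median centring called 16 members, all falling. It also moved the share of rising genes among all called from 70.3% to 40.5%. Slopes within slides were above 0 in 22 members and below in 14, with a median of 0.006. Over all genes they were above 0 in 8271 and below in 9125.

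Other genes of the same processes, listed from textbook roles, had medians on the same side. Of 53 further replication genes, 52 were lower at E18 than at E11 (all genes 51.5%), with a median of -0.48. The trend's shares over all genes were 2.64% falling and 6.25% rising. The trend called 4 falling and 0 rising there: Timeless of the fork protection complex, Mcm10, which helps start the fork, Chaf1a, a chromatin assembly subunit, and Pold1, a polymerase catalytic subunit. Timeless stood at 0.24, 0.33, -0.81 and -0.84 and Mcm10 at 0.39, 0.28, -0.66 and -0.58. Pole, a leading strand polymerase, stood at 0.01, 0.35, -0.83 and -0.77 and did not pass. At the other end, Rpa3, a single-strand binding subunit, stood at 1.07, 0.26, 0.66 and 1.17. Orc4 of the origin recognition complex (0.71, 0.00, 0.37, 0.58) and Dbf4, which activates the Cdc7 kinase (0.59, 0.12, 0.37, 0.55), shared that shape. The 4 calls were 0 with slide as a block and 0 without E11 or without E12, 9 without E18 and 17 under median centring. Over all genes, median centring called 1244 of 17396 in either direction.

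Of 66 further mitosis genes 65 were measured, and 50 of them were lower at E18 than at E11 (all genes 51.5%), with a median of -0.37. None passed the limma trend in either direction (0 called, all genes 2.64% falling and 6.25% rising). At an unadjusted p under 0.05, 15 were falling and 1 rising, beside 1988 and 2833 of 17396 genes. Without E18 6 fell, and under median centring 8 did. The lowest slopes were those of Ckap5, a microtubule polymerase (0.62, -0.03, -0.86, -0.61), Ncapd2 of condensin (-0.09, 0.33, -0.64, -0.82) and Cdca2, a chromatin phosphatase regulator (0.44, 0.32, -0.51, -0.41). The highest were those of Depdc1a (0.51, -0.05, 0.55, 1.12), the centrosomal kinase Nek2 (0.32, 0.34, 0.45, 0.79) and the kinase Pbk (0.49, 0.05, 0.22, 0.83). The gap between these wider lists was smaller than between the members, at -0.11 for E18 over E11 (-0.22 under median centring). Their last steps were 0.17 and 0.22, beside -0.01 for the Mcm subunits.

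**Figure D5:**
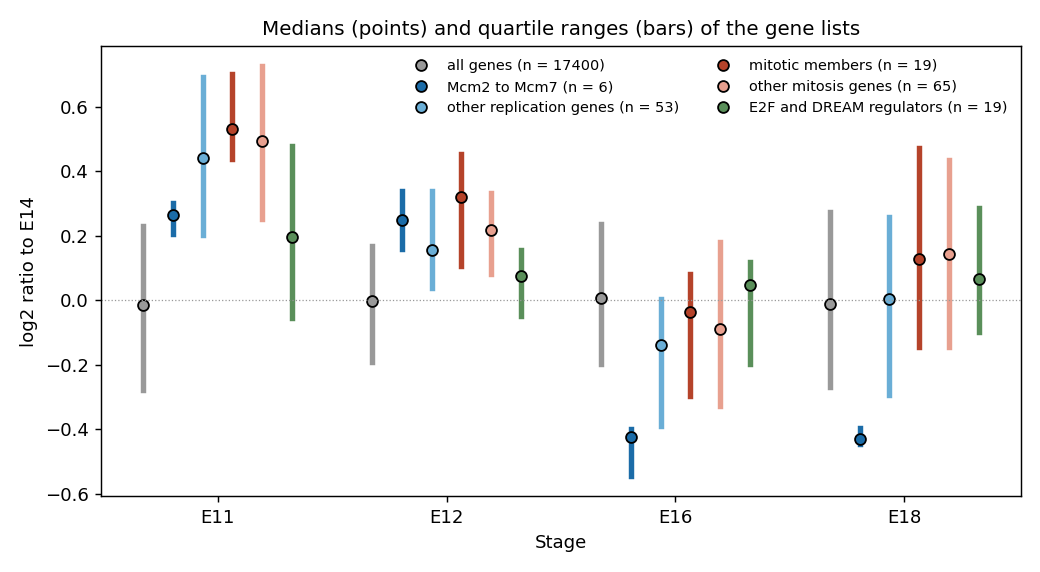
Median (point) and quartile range (bar) of the log2 ratio to E14 (y axis) at each stage (x axis) for all genes, Mcm2 to Mcm7, other replication genes, mitotic members, other mitosis genes and E2F and DREAM regulators. At E18 the Mcm genes sit at -0.43, apart from the other lists, which have medians from -0.01 to 0.14.

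The regulators that act through such promoters went both ways. The 19 E2F and DREAM genes had medians of 0.19, 0.08, 0.05 and 0.07, and 12 were lower at E18 than at E11 (all genes 51.5%). E18 over E11 had a median of -0.21 and ranged from -0.92 to 1.20. Here 1 gene rose and 0 fell, a share no higher than the 6.25% of all genes that rose. Rb1, the retinoblastoma protein, which holds E2F factors in check, stood at 0.05, -0.16, 0.55 and 1.25 and rose by 0.18 ± 0.04 per day (limma, adjusted p = 0.0419). It was not called with slide as a block, with median centring, with scanner log ratios, without the intensity trend, or without E11, E12 or E18. Its relatives had the next highest slopes without passing: Rbl1 lay at -0.23, -0.33, 0.10 and 0.28 and Rbl2 at -0.15, 0.08, 0.28 and 0.29. The lowest slopes were those of E2f6 (1.04, 0.69, 0.12, 0.22), the histone-binding Rbbp4 (0.76, 0.18, -0.14, -0.16) and the activator E2f3 (0.73, 0.59, -0.10, 0.06).

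Members grouped by promoter words had overlapping values. The 12 members with a CHR word alone had a median E18 over E11 of -0.67, and the 8 with an E2F word alone one of -0.65. The 7 with neither had -0.51, and the 3 with both (Cdk1, Mcm7 and Mki67) ranged from -0.81 to 0.12. This grouping was made after the values were seen.

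Cell type markers moved over the same stages. All 7 dental mesenchymal markers (such as Msx1 and Pax9) were measured. Their medians were 0.32, 0.31, -1.20 and -2.49, lower at E16 and E18 than at E11 and E12, as the members' medians were. Of 12 red cell markers 11 were measured, with medians of 0.73, 0.12, -0.74 and -0.60 and ranges from -1.37 to 4.49 at E11 and from -7.11 to -0.01 at E18. Keratinizing epithelium (10 markers) had medians of -0.54, -0.53, 1.59 and 0.38, highest at E16, where the members were lowest. Endothelial markers (6) lay at -0.06, -0.20, -0.47 and -0.35. The part of these cell types in the members' values was not tested.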

How the data were processed

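Per the labels, Trizol served to extract total RNA, and E14 RNA carried Cy3 and the other stage Cy5. Per the file headers, Agilent Feature Extraction 10.5.1.1 read the arrays; the deposited files hold linear intensity values per spot and a log10 ratio of Cy5 over Cy3. The deposited value table matched that log10 ratio on 100% of values (relative tolerance 0.006), and its column medians were 0. The deposited intensity values were turned into log2 ratios in R 4.3.3 (limma 3.58.1) by normexp on mean signal and median background with offset 50, which compresses dim ratios, then loess within arrays with control spots at weight 0. Outlier spots (92 to 126 per array) were left out; 0 were saturated.

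Of 41174 probes, 22951 were named by accession through the RefSeq table (GRCm38.p6), 6659 by symbol and 3109 by synonym; the other 8455 have the name given by the array. The brightest probe stood for its gene, and a gene was measured where this probe passed the scanner's background flag on 1 or more arrays (Cy5) or 2 or more (Cy3). Of 16 members with several measured probes, 14 had the same sign for E18 over E11.

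The trend (lmFit, eBayes with an intensity trend, 2-sided, Benjamini-Hochberg over 17396 genes, threshold 0.05) was tested on simulated data. Its p-values rest on 4 arrays and take the pools' scatter around a line as error; number of arrays limits precision. Slide was read from the file headers. All stage comparisons go through E14 as the reference stage. Whether the same E14 pool was used on every array is not stated. Members, lists and tests were chosen with earlier results of these data known. Every member is named; of each wider list, the 3 lowest and 3 highest slopes and all called genes. Alternatives were no background correction, scanner log ratios, median centring, the mean of a gene's probes, no filter on dim probes, slide as a block, no intensity trend, and leaving out each array. The dental epithelial marker list is not reported here.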

Additional observations from a re-analysis of the deposited data

How the results depend on the processing

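The trend calls moved with the arrays used, the slide block and the centring. Leaving out 1 array in turn gave 0 to 8 falling members, 60 to 756 falling genes and 141 to 1628 rising genes, against 4, 459 and 1087 with all arrays. With slide as a block all 3 counts were 0 (575 genes at an unadjusted p under 0.05), and Cenpe's slope was 0.029. Median centring gave 16 falling members, 740 falling genes and 504 rising genes. It moved the members' medians to 1.60 (E11), 1.43 (E12), 0.69 (E16) and 0.50 (E18). E18 over E11 became -1.06 for members, -1.26 for replication and -0.93 for mitotic genes. Scanner log ratios gave member medians of 0.28 at E12 and -0.098 at E18, with E18 over E11 at -0.66 for members and -0.73 for replication genes. Without background correction the E18 median was -0.096. The mean of each gene's probes gave 0.48 at E11, 0.27 at E12 and -0.042 at E18. The cause of these shifts was not tested. The gap between replication and mitotic genes in E18 over E11 stayed below 0 under all 5 other processings, from -0.40 to -0.33. The processing without the filter on dim probes could not change it, as it left the members' values as they were. No paired analysis was possible because each stage had 1 pool, so replicate numbers pair no samples.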
